A study of Mus musculus with 3 samples.

Results

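The 10 genes described here are the immediate early genes Egr1, Fos, Fosl1, Jun, Junb, Atf3, Myc, Ier2, Ier3 and Klf6, taken from the liver of mice with and without the protein TMX. They were found by their gene symbol, or its current name, in the annotation of the array's probes, and all 10 of 10 were present, among 16390 named genes, each with 1 probe. The study hybridised liver RNA of female C57BL/6 mice to 3 arrays with 2 channels. The Cy3 channel held, on 1 array each, liver of TMX-/- mice given lipopolysaccharide and D-galactosamine (LPS/GalN), liver of wild-type mice given LPS/GalN, and liver of untreated TMX-/- mice. The Cy5 channel always held liver of untreated wild-type mice, the common reference, so no dyes were exchanged. LPS/GalN was an intraperitoneal injection of 3 ng LPS with 10 mg D-(+)-galactosamine, and liver was collected 24 h afterwards. The age of the mice, how TMX was deleted, and whether a channel held 1 mouse or a pool are not stated in the labels.

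Immediate early genes are transcribed within minutes of a growth factor, cytokine or stress signal, because the proteins that switch them on are already in the cell. Signals through MAP kinases reach the factors SRF, ELK and CREB, and the gene products then act on a second wave of genes. AP-1 is a dimer of bZIP proteins of the FOS, JUN and ATF families, which contact DNA through a basic region and pair through a leucine zipper. In liver these genes are known for their early rise after partial hepatectomy, ischaemia and endotoxin, and JUN is needed for hepatocytes to divide after injury. D-galactosamine depletes the uridine nucleotides of hepatocytes and so makes the liver sensitive to LPS.

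Values are log2 ratios to untreated wild-type liver, shifted so that the median is 0 over the 10184 named genes measured on all arrays. The table does not state which channel is the numerator or the base of the logarithm. Tmx1, the gene of the TMX protein, stood at -3.88 in TMX-/- liver after LPS/GalN, 0.59 in wild-type liver after LPS/GalN, and -2.96 in untreated TMX-/- liver, so the ratio is likely sample over reference. With the opposite numerator every "higher" below would read "lower", and with natural logarithms every fold would be raised to the power 1.44. A single array per group allows no test. The only error at hand is the scatter between 2 probes of the same gene (81 genes), whose single-probe SD was 0.76, 0.42 and 0.42 log2 on the TMX-/- LPS/GalN, wild-type LPS/GalN and untreated TMX-/- arrays. It leaves out differences between mice. In whole liver, more cells of a type and more RNA per cell cannot be told apart. Log ratios hold no levels, so the tissue could be checked only in that all 6 hepatocyte markers (Alb, Ttr, Apoa1, Cyp2e1, Hnf4a and Cps1) had a value on every array.

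RefSeq promoter sequences of build GRCm38.p6 were searched for 6 of the 10 genes. None was at hand for Fosl1, Myc and Ier2, and Egr1 was left out of the search. The 6 sequences are shown because 5 of these genes (Fos, Jun, Atf3, Klf6 and Ier3) stood at least 2-fold higher in TMX-/- liver after LPS/GalN, while Junb did not. Each line gives the 130 bases before the annotated start, on the gene's strand. Capitals mark matches, on either strand, to GGGCGG (the GC box of SP and KLF factors), TGACNTCA (an AP-1 or ATF site), TGANTCA (the classical AP-1 site), TGACG (the first part of a CREB or ATF site), CACGTG (the E-box of MYC and MAX), TATAAA, the CArG box of SRF and the NF-kB site.
Fosl1, Myc, Ier2 and Egr1 are named only.
Fos (chr12:85473760-85473889, plus strand): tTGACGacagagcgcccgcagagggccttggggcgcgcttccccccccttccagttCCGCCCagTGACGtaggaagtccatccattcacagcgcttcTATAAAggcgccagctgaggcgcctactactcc
Jun (chr4:95052223-95052352, minus strand): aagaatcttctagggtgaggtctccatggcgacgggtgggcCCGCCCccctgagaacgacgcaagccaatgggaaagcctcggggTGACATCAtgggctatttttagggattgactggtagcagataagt
Atf3 (chr1:191183334-191183463, minus strand): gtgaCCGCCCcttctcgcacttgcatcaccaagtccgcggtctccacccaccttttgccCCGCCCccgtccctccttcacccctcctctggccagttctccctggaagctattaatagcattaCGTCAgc
Klf6 (chr13:5861359-5861488, plus strand): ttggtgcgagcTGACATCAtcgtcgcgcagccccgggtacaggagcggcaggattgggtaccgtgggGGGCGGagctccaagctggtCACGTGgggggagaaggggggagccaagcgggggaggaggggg
Ier3 (chr17:35821583-35821712, plus strand): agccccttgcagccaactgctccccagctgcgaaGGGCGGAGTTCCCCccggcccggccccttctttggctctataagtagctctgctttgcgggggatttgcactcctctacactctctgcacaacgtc
Junb (chr8:84978749-84978878, minus strand): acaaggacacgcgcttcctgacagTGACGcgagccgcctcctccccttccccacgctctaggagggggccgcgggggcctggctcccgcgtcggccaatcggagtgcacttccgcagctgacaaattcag

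Over the 250 bases before the start, GGGCGG was found in 5 of these 6 promoters (Atf3, Jun, Fos, Klf6 and Ier3) and in 32.7% of all 32851 promoters of the table. TGACNTCA was found in 2 of 6, Jun and Klf6, against 7.49% of all promoters. TGACG was found in Fos, Atf3 and Junb, against 17.8%. The NF-kB site was found in Fos and Ier3, against 7.25%, and in Ier3 it overlaps the GC box. CACGTG was found in Klf6 (6.02% of all) and TATAAA in Fos (12.4% of all). TGANTCA (6.75% of all) and the CArG box (1.47% of all) were in none of the 6 windows. Sites beyond these 250 bases were not searched, and the Egr1 promoter was not among the 6. These matches describe letters in the windows, and whether they go with the array values was not tested.

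Of the FOS family, Fosl1 and Fos had values in TMX-/- liver after LPS/GalN alone. Fosl1 encodes FRA-1, a FOS relative that lacks the transactivation domain of FOS. It stood at 4.77 there, 27.4-fold above untreated wild-type liver, the highest of the 10 genes and rank 10 from the highest of 11755 genes. Fos, the prototype immediate early gene, stood at 2.68 on the same array (6.43-fold, rank 174). Both were blank on the wild-type LPS/GalN and untreated TMX-/- arrays, so neither can be compared between treated livers. In all, 556 named genes (3.39%) had a value on that array alone, and 48.9% of those stood at least 2-fold higher. The labels give no rule for blank cells, and a blank is not a low value.

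The JUN side was split. Jun, the main partner of FOS proteins, stood at 2.25 in TMX-/- liver after LPS/GalN, 0.14 in wild-type liver after LPS/GalN and -0.46 in untreated TMX-/- liver. Treated TMX-/- liver was thus the one high sample, 4.75-fold above untreated wild-type liver, and the other livers lay within 2-fold of it. Treated wild-type and untreated TMX-/- liver differed by 0.60, against a single-probe SD of 0.38 for that difference. Junb, a JUN family member that activates many AP-1 sites more weakly than JUN, stood at -0.13, -0.59 and -0.52 on the same arrays. Its values were below 0 and within 2-fold of untreated wild-type liver in all 3 samples, and those of treated wild-type and untreated TMX-/- liver differed by less than the single-probe SD (-0.07).

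Atf3, a stress-induced bZIP factor of the ATF family that can pair with JUN proteins, stood at 3.77 in TMX-/- liver after LPS/GalN and at 0.88 in untreated TMX-/- liver, and was blank in wild-type liver after LPS/GalN. The treated liver was 13.6-fold above untreated wild-type liver (rank 32 from the highest). The untreated one was 1.85-fold above it, about 2.10 single-probe SDs.

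Egr1 was the exception among the zinc finger genes. It encodes a GC-rich site binding factor that SRF and ELK proteins switch on. Egr1 stood at 1.90 in TMX-/- liver after LPS/GalN, 2.68 in wild-type liver after LPS/GalN and -0.44 in untreated TMX-/- liver. Both treated livers were high and both untreated livers low, and Egr1 was the one member past 2-fold in wild-type liver after LPS/GalN, at rank 15 of 12338 genes from the highest. Klf6, a Krüppel-like factor induced in injured liver and in activated stellate cells, stood at 2.93, 0.82 and 0.64 on the same arrays. Treated TMX-/- liver stood apart from the other livers (7.61-fold above untreated wild-type liver), and treated wild-type and untreated TMX-/- liver differed by 0.19, which is under the single-probe SD.

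Myc, the bHLH leucine zipper factor that pairs with MAX and drives growth and ribosome production, stood at 1.51 in TMX-/- liver after LPS/GalN, -0.32 in wild-type liver after LPS/GalN and -1.04 in untreated TMX-/- liver. It was the one member at least 2-fold below untreated wild-type liver anywhere, at rank 73 of 11351 genes from the lowest in untreated TMX-/- liver. That value lies just past the 2-fold line, 2.48 single-probe SDs from 0.

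The last pair of genes are immediate early genes whose products are not known as classical DNA-binding factors. Ier3 (also called IEX-1), which NF-kB and p53 switch on and which regulates cell death and ERK signalling, stood at 4.39 in TMX-/- liver after LPS/GalN, 0.91 in wild-type liver after LPS/GalN and 0.46 in untreated TMX-/- liver. Treated TMX-/- liver was 21.0-fold above untreated wild-type liver, at rank 16 from the highest, and the other livers were within 2-fold. Ier2, a nuclear protein induced by growth factors, stood at 0.13, 0.49 and -0.28 on the same arrays. None of the 3 values reached 2-fold, and treated wild-type liver was the highest.

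**Figure D1:**
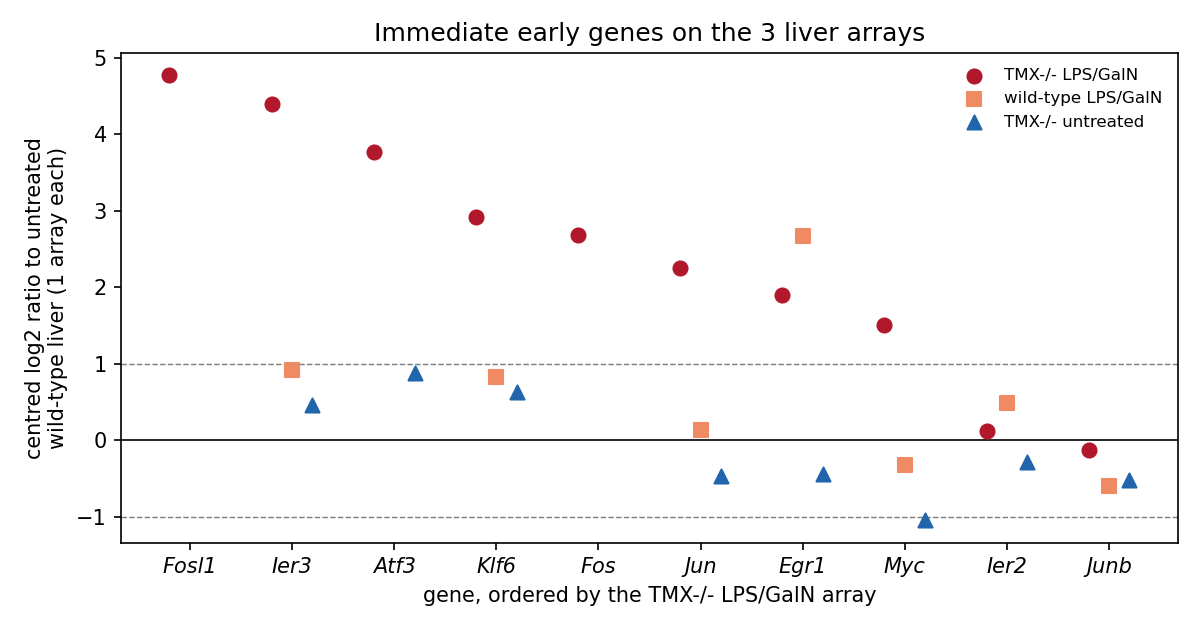
Centred log2 ratio of each gene to untreated wild-type liver (the line at 0) on the y axis, with genes on the x axis and 1 point per array. Dashed lines mark 2-fold, and a missing point is a blank cell (Fos and Fosl1 on both other arrays, Atf3 in treated wild-type liver). Circles for TMX-/- LPS/GalN liver run from -0.13 (Junb) to 4.77 (Fosl1), and Egr1 alone has its wild-type LPS/GalN square at 2.68.

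Against untreated wild-type liver, 8 of the 10 genes stood at least 2-fold higher in TMX-/- liver after LPS/GalN and 0 lower, where 16.3% of all 11755 named genes with a value stood higher and 11.7% lower. Their median was 2.47, against 0.08 over all genes. The 8 include Fos and Fosl1, valued on the TMX-/- LPS/GalN array alone, and Atf3, blank in treated wild-type liver. Genes valued on that array alone stood at least 2-fold higher in 48.9% of cases. Among genes valued on all arrays, 5 of 7 members stood higher, against 13.5% of all such genes. The spread of the TMX-/- LPS/GalN array over genes was wider than that of the others (SD 1.04, against 0.48 in treated wild-type and 0.40 in untreated TMX-/- liver). Scaling every array to the mean SD shrank the values of that array and stretched those of the others. Egr1 in treated wild-type liver, for example, moved from 2.68 to 3.56. Scaled values are no longer log2 ratios, and "2-fold" at equal spreads stands only for a scaled value of 1. With all arrays scaled to the same spread, 7 of the 10 stood higher in treated TMX-/- liver (6.41% of all genes), with Myc at 0.94 no longer past 2-fold, Fosl1 at 2.95, Ier3 at 2.72, Atf3 at 2.33, Klf6 at 1.81, Fos at 1.66, Jun at 1.39 and Egr1 at 1.18. In wild-type liver after LPS/GalN, 1 of 7 genes with a value stood higher and 0 lower (6.80% and 1.65% of 12338 genes), with a median of 0.49 against 0.05 over all genes. Liver was sampled at 24 h alone, so an earlier rise and fall could not be seen in either genotype. In untreated TMX-/- liver, 0 of 8 stood higher and 1 lower (4.97% and 0.793% of 11351 genes), with a median of -0.36 against 0.03. Cell type markers moved on the same arrays. Hepatocyte markers stood at least 2-fold lower in 4 of 6 cases in treated TMX-/- liver, 3 of 6 in treated wild-type liver and 0 of 6 in untreated TMX-/- liver. Macrophage markers stood higher in 5 of 7, 5 of 7 and 3 of 7 cases, in that order. Of 5 monocyte markers 3 had a value in treated TMX-/- liver, all at least 2-fold higher, led by S100a4 (5.44), which stood at 0.71 in both other livers. In treated wild-type liver 1 of 2 with a value stood higher, namely Ccr2 at 2.03, which stood at 4.18 in treated TMX-/- liver. Of 6 neutrophil markers, 2 of 4 with a value stood higher and 1 lower in treated TMX-/- liver, and 1 of 5 higher in treated wild-type liver, with S100a9 at 4.45 and 1.80, and Ly6g, the most neutrophil-specific of them, at -2.50 and -0.89. In treated TMX-/- and treated wild-type liver, stellate cell markers stood higher in 2 of 3 and 1 of 4 cases, T and NK cell markers in 3 of 6 and 2 of 6, endothelium markers in 2 of 4 and 0 of 4, B cell markers in 1 of 2 and 0 of 3, and cholangiocyte markers in 1 of 4 and 0 of 4. The part of these cell types in the values of the 10 genes was not tested.

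Within TMX-/- mice, LPS/GalN liver was set against untreated liver, a difference from which the reference drops out provided that both arrays used 1 reference preparation. Of 8 genes with both values, 6 stood at least 2-fold higher and 0 lower, where 11.3% of 10426 genes stood higher and 12.0% lower. The differences were 3.93 for Ier3 (rank 9 from the highest), 2.89 for Atf3, 2.71 for Jun, 2.56 for Myc, 2.34 for Egr1 and 2.29 for Klf6. Ier2 (0.41) and Junb (0.40) differed by less than the single-probe SD of this difference, 0.67. With equal spreads 4 of the 8 stood higher (6.52% of all genes), as Atf3 (0.93) and Klf6 (0.80) no longer reached 2-fold and Ier3 stood at 1.99. Myc was low in untreated TMX-/- liver, so its difference here was larger than its ratio to untreated wild-type liver.

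Between the treated livers, TMX-/- minus wild-type, 4 of 7 genes stood at least 2-fold higher and 0 lower (10.1% and 10.4% of 10957 genes). Ier3 differed by 3.48, at rank 11 from the highest, and Jun by 2.11, Klf6 by 2.10 and Myc by 1.84. Junb differed by 0.46 and Ier2 by -0.36, both under the single-probe SD of 0.59. Egr1 differed by -0.77, so it stood lower in treated TMX-/- than in treated wild-type liver, but within 2-fold and at 1.31 single-probe SDs. The TMX-/- LPS/GalN array enters each of these comparisons, so their counts are not independent of each other.

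The difference of the LPS/GalN differences, TMX-/- minus wild-type, was 3.02 for Ier3, 2.88 for Myc, 2.57 for Jun, 1.47 for Klf6, 0.99 for Junb, -0.08 for Ier2 and -0.34 for Egr1. Thus 4 of 7 stood past 2-fold in the positive direction and 0 in the negative one (9.81% and 11.6% of 10184 genes). The differences subtracted here are unlike measures. In TMX-/- mice both livers were in Cy3 and the reference drops out. In wild-type mice treated liver was in Cy3 and untreated liver in Cy5, with no dyes exchanged. Any effect of the dye on a gene would stay in the wild-type difference alone, and was not tested. With equal spreads, the difference of differences was -0.30 for Klf6, 0.77 for Ier3 and -1.69 for Egr1, while Myc (3.02), Jun (1.94) and Junb (1.54) stood past 2-fold. Egr1 was then at -2.38 between the treated livers, Klf6 (0.72) no longer reached 2-fold there, and Ier3, Myc (1.36) and Jun (1.21) still did, so 3 of 7 stood higher (4.51% of all genes) and 1 lower (6.07%).

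**Figure D2:**
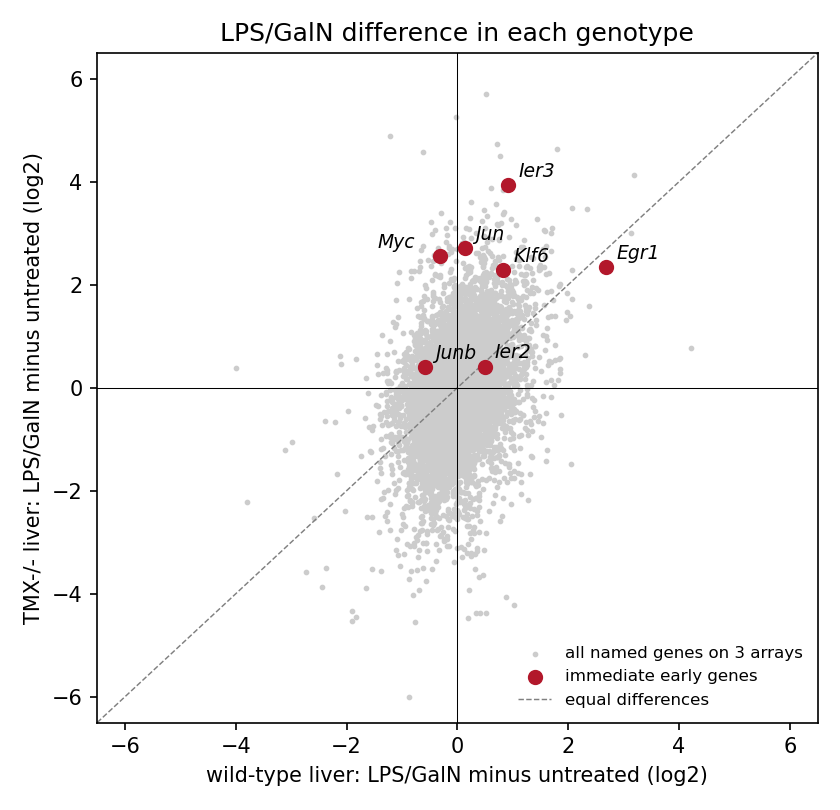
Difference between LPS/GalN and untreated liver (log2) in TMX-/- mice on the y axis and in wild-type mice on the x axis, for 10184 named genes (grey) and the 7 immediate early genes with a value on all arrays (red). The y axis sets Cy3 samples of separate arrays against each other, while the x axis sets Cy3 against Cy5 within an array. Myc, Jun, Klf6 and Ier3 lie above the dashed line of equal differences at 2.56, 2.71, 2.29 and 3.93 on the y axis, while Egr1 (2.34 and 2.68) and Ier2 (0.41 and 0.49) lie close to it. Junb (0.40 and -0.59) also lies above the line, by 0.99.

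For the 7 genes with a value on every array, likeness to other genes was measured as the Euclidean distance over the 3 log2 ratios, among all 10184. The nearest to Ier3 were Tnfrsf12a (distance 0.56), Slc25a24 (0.63) and S100a11 (0.64), all near 4 or above in treated TMX-/- liver and below 1 in the others. Klf6 lay nearest to Tagln (0.18), Ms4a4c (0.18) and Dis3 (0.23), and Jun to Pacc1 (0.24), Nid1 (0.28) and Agfg1 (0.32). Myc lay nearest to Rpl38 (0.31), Timeless (0.36) and Itpkc (0.37). Egr1 had no close neighbour: Orm2, an acute phase protein gene, was the nearest at 0.88, followed by Hsp90aa1 (1.01) and Tubb2a (1.02). Junb (Dedd at 0.06, Lin54 at 0.07, Esr1 at 0.10) and Ier2 (Tmem41b at 0.08, Haghl and Myl4 at 0.10) lay among many genes with small ratios. Among the members themselves, Jun and Myc were nearest to each other, at 1.04. Over 3 arrays this likeness is a description only.

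The other AP-1 and related bZIP genes lay on both sides of 0. Of 18 with a value in treated TMX-/- liver, 3 stood at least 2-fold higher and 4 lower, with a median of -0.07. Of all genes, 16.3% stood higher and 11.7% lower there. With equal spreads the counts of these 18 were 2 and 1, against 6.41% and 4.82% of all genes. Maff (1.86), which encodes a small MAF protein, Batf (1.78), a partner of JUN proteins in immune cells, and Jdp2 (1.36), a repressor that pairs with JUN, were the highest. Cebpa, a factor of differentiated hepatocytes, stood at -1.89 in treated TMX-/-, -1.11 in treated wild-type and -0.66 in untreated TMX-/- liver. Fosl2 (-1.09) and Atf5 (-1.05) also stood low in treated TMX-/- liver, and Fosb stood at -0.76 there. In treated wild-type liver 1 of 19 stood higher, Crem at 1.23, and 1 lower, Cebpa, against 6.80% and 1.65% of all genes. With equal spreads 3 of 19 stood higher and 1 lower there, against 11.2% and 3.98%.

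Of the other immediate early genes, 13 of 27 stood at least 2-fold higher in treated TMX-/- liver and 2 lower (median 0.66), against 2 of 26 higher and 0 lower in treated wild-type liver (median -0.04). Of all genes, 16.3% stood higher and 11.7% lower in treated TMX-/- liver, and 6.80% and 1.65% in treated wild-type liver. With equal spreads, 8 of the 27 stood higher in treated TMX-/- liver and 2 of the 26 in treated wild-type liver (6.41% and 11.2% of all genes). Ccn2 and Ccn1, matricellular proteins that SRF and YAP switch on, stood at 3.28 and 2.82 in treated TMX-/- liver, and at 0.53 and -0.47 in treated wild-type liver. Gadd45b, a stress sensor upstream of MAP kinases, stood at 2.70 and 1.68 in the 2 livers, in the same order, and its relative Gadd45g at 2.58 and 1.22. Both were at least 2-fold higher in both treated livers, and the difference between these livers, 1.02 for Gadd45b and 1.36 for Gadd45g, turned to -0.57 and -0.03 with equal spreads. Zfp36, which encodes a protein that speeds the decay of AU-rich mRNAs, stood at -1.37 in treated TMX-/- liver and at -0.29 in treated wild-type liver. Errfi1, a feedback inhibitor of the EGF receptor, stood at -1.51 and -0.35 in the same livers.

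The MAP kinase pathway and SRF genes act upstream of immediate early genes. Of 21 with a value in treated TMX-/- liver, 3 stood at least 2-fold higher, close to the 16.3% over all genes, and 0 lower (median 0.10), namely the kinases Braf (1.49) and Rps6ka3 (1.25) and the SRF coactivator gene Mrtfa (1.30). Of 20 in treated wild-type liver, 0 stood past 2-fold, where 6.80% of all genes stood higher and 1.65% lower. With equal spreads 0 of 21 stood past 2-fold in treated TMX-/- liver (6.41% of all genes higher and 4.82% lower). Then 1 of 20 stood higher in treated wild-type liver (11.2% of all genes). The phosphatases and feedback inhibitors lay on both sides. In treated TMX-/- liver 5 of 14 stood higher and 2 lower (median 0.76), and in treated wild-type liver 1 of 13 stood higher (median 0.08). Of all genes, 16.3% stood higher and 11.7% lower in treated TMX-/- liver, and 6.80% higher in treated wild-type liver. The order turned with equal spreads, which shrink the treated TMX-/- values and stretch the treated wild-type ones. Then 2 of 14 stood higher in treated TMX-/- and 4 of 13 in treated wild-type liver (6.41% and 11.2% of all genes). None of the list then stood lower in either liver (4.82% and 3.98% of all genes). Dusp1, an immediate early phosphatase of p38 and JNK, stood at 2.41 in treated TMX-/-, 1.47 in treated wild-type and 0.06 in untreated TMX-/- liver. Like Egr1 it was thus high in both treated livers, and with equal spreads it stood at 1.49 in treated TMX-/- and 1.95 in treated wild-type liver. Dusp2 (2.03) and the ERK phosphatase gene Dusp6 (1.61) were next in treated TMX-/- liver, and Dusp9 (-1.36) and Spry4 (-1.09) were the lowest.

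Genes of the KLF and EGR families other than Klf6 and Egr1 stood on both sides in treated TMX-/- liver, with 2 of 14 higher and 3 lower (median 0.09). Of all genes, 16.3% stood higher and 11.7% lower there. With equal spreads 0 of 14 stood higher and 2 lower (6.41% and 4.82% of all genes). In treated wild-type liver 0 of 14 stood higher and 1 lower (6.80% and 1.65% of all genes). With equal spreads 2 stood higher and 1 lower there (11.2% and 3.98% of all genes). Klf4 (1.35) and Klf5 (1.27) were the highest in treated TMX-/- liver before that scaling. Klf15, a factor of fasting metabolism, stood at -3.03 in treated TMX-/-, -0.08 in treated wild-type and -0.28 in untreated TMX-/- liver. Klf1, an erythroid factor, stood at -2.04 and -1.34 in the treated TMX-/- and treated wild-type livers. Klf9 stood at -1.28 in treated TMX-/- liver. Egr2 had a value in treated TMX-/- liver alone (1.96).

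MYC partners and antagonists lay near 0, with 0 of 11 higher and 1 lower in treated TMX-/- liver (median -0.09), which was Mlxipl at -1.81, the glucose-responsive factor ChREBP. Mycn, a MYC relative, stood at 2.60 in treated wild-type and 0.69 in untreated TMX-/- liver, and was blank in treated TMX-/- liver. Of all genes, 16.3% stood higher and 11.7% lower in treated TMX-/- liver, and 6.80% higher in treated wild-type liver. MYC target genes stood higher in 11 of 19 cases in treated TMX-/- liver and lower in 0 (median 1.17). In treated wild-type liver 1 of 19 stood higher (median 0.14). With equal spreads, 5 of 19 stood higher in treated TMX-/- and 1 of 19 in treated wild-type liver (6.41% and 11.2% of all genes). In treated TMX-/- over treated wild-type liver 3 of 19 then stood higher (4.51% of all genes), in place of 10 (10.1%). Cad, an enzyme of pyrimidine synthesis, stood at 2.45 in treated TMX-/- and 0.49 in treated wild-type liver, and the nucleolar genes Npm1 and Ncl stood at 1.97 and 1.93 in treated TMX-/- liver. Tfrc, the transferrin receptor, was the one target higher in treated wild-type liver, at 1.97, and stood at 1.57 in treated TMX-/- liver.

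Known AP-1 targets stood higher in 11 of 18 cases and lower in 1 in treated TMX-/- liver (median 1.63), against 16.3% and 11.7% of all genes. In treated wild-type liver 3 of 16 stood higher (median 0.16), against 6.80%. With equal spreads, 10 of 18 stood higher in treated TMX-/- and 5 of 16 in treated wild-type liver (6.41% and 11.2% of all genes). In treated TMX-/- over treated wild-type liver 5 of 15 then stood higher (4.51% of all genes), in place of 9 (10.1%). The chemokine gene Ccl2 stood at 5.80 in treated TMX-/- liver and -0.02 in treated wild-type liver. Timp1, an inhibitor of matrix proteases, stood at 4.07 and 1.79 in these livers, but at 2.52 and 2.38 with equal spreads. Lgals3, a galectin of macrophages, stood at 3.86 and 0.61, and the protease gene Mmp3 was blank in treated TMX-/- and stood at 1.52 in treated wild-type liver. Vegfa was the one lower target, at -1.19 in treated TMX-/- liver. Several of these genes, such as Lgals3, are also expressed by the monocytes and macrophages whose markers stood high on the same array, and their part was not tested.

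**Figure D3:**
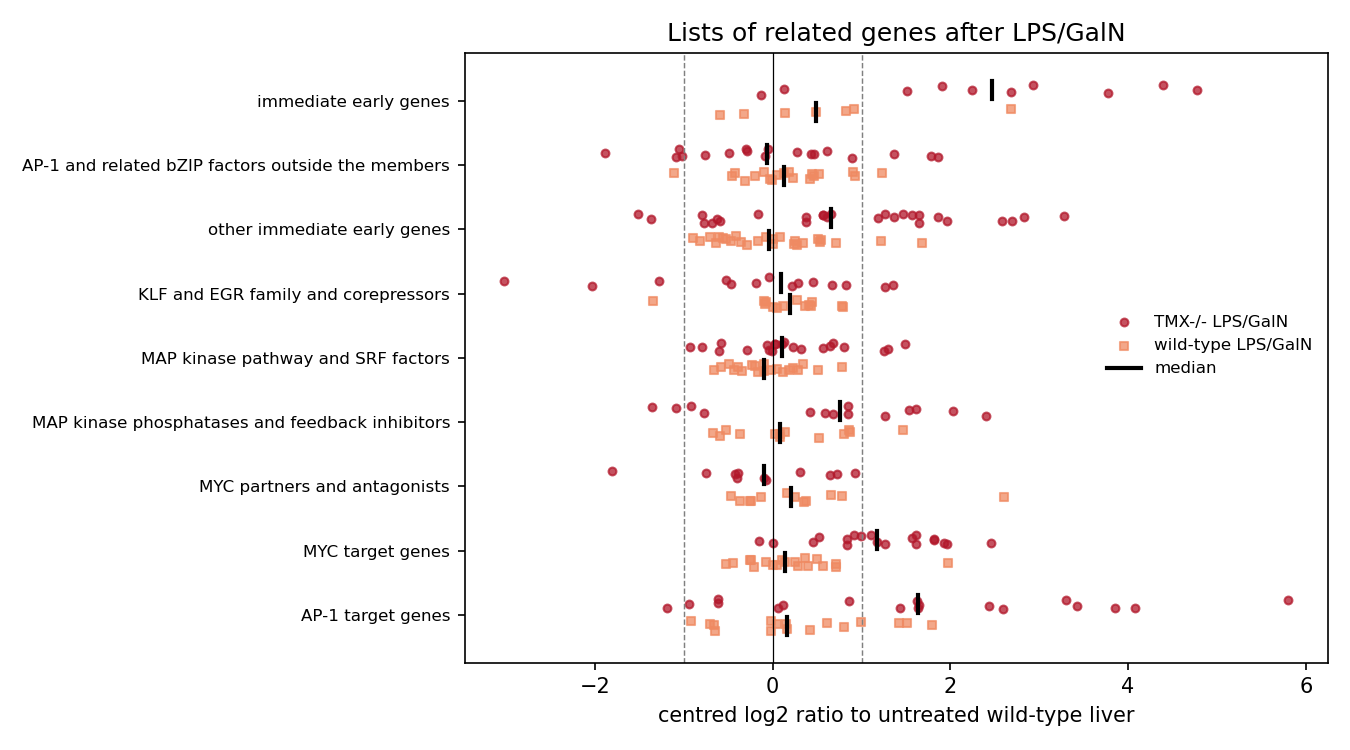
Centred log2 ratio to untreated wild-type liver (x axis) for the 10 immediate early genes and 8 lists of related genes (y axis), with 1 point per gene in TMX-/- LPS/GalN liver (circles, upper row of each pair) and wild-type LPS/GalN liver (squares, lower row). Black bars are medians and dashed lines mark 2-fold. The medians in treated TMX-/- liver are 2.47 for the immediate early genes, 1.63 for AP-1 targets and 1.17 for MYC targets, and lie below 1 for the other lists.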

How the data were processed

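The authors deposited 1 table of log ratios per probe, read here as log2, with 23473 rows and 1 column for each of 3 arrays. Per the labels' protocols, total liver RNA was isolated by miRNeasy columns, copied into amino allyl aRNA and coupled to Cy3 or Cy5. Image analysis, background correction, normalization and the rule for blanks are not given in these labels. The number of arrays limits the precision, and without signal values dim probes could not be set aside. In GEO's annotation of the platform 16631 rows had 1 symbol, 0 had several and 6842 had none. Old symbols were replaced using synonyms listed by RefSeq for GRCm38.p6 (12622 current, 3947 renamed, 62 kept).

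Probes of a gene were averaged, and each array was centred on its median over 10184 genes (-0.07, -0.04 and -0.03 on the TMX-/- LPS/GalN, wild-type LPS/GalN and untreated TMX-/- arrays). Genes were counted past 2-fold, a log2 value of 1, among those with a value on the arrays compared, and the comparisons numbered 6. The counting was tested on simulated data. Python 3.11.15, numpy 2.4.6, pandas 2.3.3 and matplotlib 3.10.9 were used. The members, lists and markers were chosen with earlier results of these data known. Named were all members, the 3 highest and 3 lowest genes past 2-fold of each list in treated TMX-/- liver, the 2 highest and lowest in treated wild-type liver, and the 3 nearest genes of each member. Fosb, Egr2, Ccr2, S100a4, S100a9 and Ly6g were added as relatives or markers after their values were seen. Alternatives were other centring, equal spreads, thresholds of 1.5-fold and 3-fold, natural logarithms, another probe rule, another gene set and another baseline.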

Additional observations from a re-analysis of the deposited data

Results flagged for a closer look

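In 16 of the genes named here and measured on all arrays, the difference between LPS/GalN and untreated liver had opposite signs in TMX-/- and wild-type mice, with no minimum size. With 1 array per group this was not tested. The share of all genes with opposite signs was not counted, so the 16 cannot be read as a result about these genes. The wild-type difference is also a Cy3 to Cy5 ratio, while in TMX-/- mice both livers were in Cy3. Among the immediate early genes, Myc stood at 2.56 in TMX-/- and -0.32 in wild-type mice, a difference of 2.88, and Junb at 0.40 and -0.59, a difference of 0.99. Among the related genes, Ccl2 stood at 5.27 in TMX-/- and -0.02 in wild-type mice (5.28), and Ccn1 at 2.37 and -0.47 (2.84). Rps6ka3 stood at 1.15 and -0.02 (1.16), in the same order. Mlxipl stood at -1.81 and 0.38 (-2.19), Spry4 at -1.62 and 0.08 (-1.70), and Atf5 at -0.95 and 0.04 (-0.99). Fosb stood at -0.25 and 0.18 (-0.43), and Tmx1 itself, deleted in TMX-/- mice, at -0.92 and 0.59 (-1.51). The other 6 were named for their likeness to Myc or Junb, so their signs follow from that choice. Timeless stood at 2.47 and -0.67 (3.14), Itpkc at 2.21 and -0.40 (2.61) and Rpl38 at 2.32 and -0.12 (2.44). Dedd stood at 0.45 and -0.63 (1.07), Lin54 at 0.38 and -0.66 (1.05) and Esr1 at 0.40 and -0.56 (0.96). The wild-type values of Myc, Ccl2, Rps6ka3, Mlxipl, Spry4, Atf5, Fosb, Itpkc and Rpl38 were smaller than the single-probe SD on that array, 0.42, so their sign is uncertain. The TMX-/- values of Junb, Fosb, Dedd, Lin54 and Esr1 were smaller than the single-probe SD of that difference, 0.67, so their sign is uncertain too. Set against untreated TMX-/- liver in place of untreated wild-type liver, Myc stood at 0.72 and Junb at -0.07 in treated wild-type liver.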

How the results depend on the processing

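No paired analysis was possible because each group has 1 array and no result comes from a test. The 12 counts of members (higher and lower in 6 comparisons) were the same, or within 1.5 times, with values as deposited and with the probe rule changed, and all 47 member values then moved by less than the single-probe SD. This follows from the data, since each member has 1 probe and the medians subtracted were only -0.07, -0.04 and -0.03. These settings are therefore no check of the member values. With equal spreads, members higher numbered 3 in treated wild-type (in place of 1, with 11.2% of all genes) and 2 in untreated TMX-/- liver (in place of 0, with 10.3%), and 1 (in place of 0) stood lower between treated livers (6.07%) and in the difference of responses (12.7%). At that setting Klf6 reversed to -0.30 in the difference of responses, and Gadd45b (-0.57) and Gadd45g (-0.03) reversed between treated livers. These are differences of scaled values and not fold changes. At 1.5-fold, 3 stood higher (15.8% of all genes) and 1 lower (7.68%) in treated wild-type liver, 2 higher in untreated TMX-/- liver (11.5%), and 1 lower between treated livers (21.2%). At 3-fold, 0 stood lower in untreated TMX-/- liver (0.0176%). Read as natural logarithms, 3 stood higher in treated wild-type (12.6%), 1 higher in untreated TMX-/- (9.03%) and 1 lower between treated livers (17.8%). With genes valued on all arrays alone, 5 of 7 stood higher in treated TMX-/- liver (13.5%), since Fos, Fosl1 and Atf3 are left out. With untreated TMX-/- liver as the baseline, the counts in treated wild-type liver were 1 and 0 again (2.23% and 2.39% of all genes). The values were less stable, as 6 of the 7 moved by at least the single-probe SD. Among them, Myc moved from -0.32 to 0.72, Klf6 from 0.82 to 0.19 and Egr1 from 2.68 to 3.11. Tmx1 in untreated TMX-/- liver moved to -4.70 with equal spreads and -4.27 with natural logarithms, and stayed below 0 at every setting tried. Without signal values, how far dim probes contribute was not tested.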
